A study of Mus musculus with 23 samples.

Results

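Keratins 8, 18, 7 and 19 are the filament proteins of simple, one-layered epithelia, and 10 genes were followed here because they tell epithelial from mesenchymal cells: Krt8, Krt18, Krt7, Krt19, Epcam, Cldn4, Dsp, Vim, Zeb1 and Zeb2. They are 10 of the 18193 genes that the arrays measured with a probe set of a single gene symbol. The genes were chosen by name, with earlier results of the same arrays known, above all the low level of Krt8 in subclone 18. That level therefore stands below as a description with no test, and so does its comparison with Krt18. Each gene was read on the probe set with the highest mean intensity over all 23 arrays.

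The material was the mouse lung tumour line Lewis lung carcinoma (LLC). Per the labels, 8 subclones, numbered 2, 3, 6, 18, 19, 23, 24 and 28, were isolated from the parental line by limiting dilution, so that each is 1 clone of the same line. All were kept in DMEM with 10% serum and then held in a serum-free expression medium for 24 h before total RNA was taken. Subclone 6 had 2 Affymetrix arrays and every other subclone 3. No parental sample, untreated control or reference subclone was available for comparison, so each subclone was set against the equally weighted mean of the other 7. Arrays of 1 subclone are labelled as biological replicates, with no word on whether they came from separate cultures, and p-values measure only the spread between these arrays.

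Keratins form filaments only as pairs of a type I and a type II chain, and in simple epithelia Krt8 (type II) pairs with Krt18 (type I). Krt7 (type II) and Krt19 (type I) join them in ductal and glandular cells. Vimentin builds the filaments of mesenchymal cells on its own, and the zinc-finger repressors ZEB1 and ZEB2 silence epithelial genes such as Cdh1 by binding E-box sequences in promoters. A chain without a partner is known to be unstable as protein, which RNA levels do not show.

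The genes of Krt8 and Krt18 lie next to each other on mouse chromosome 15. The 250 bases before the annotated start of each are shown because these neighbours are transcribed from separate promoters, and the comparison below turns on how their levels go together and part. They come from RefSeq promoter windows of build GRCm38.p6, written 5′ to 3′ on the strand of the gene, with the E-box CACCTG in capitals. The series names no genome build, and no array value depends on these coordinates. The Krt8 window covers chr15:102004343-102004592 on the minus strand and the Krt18 window chr15:102027966-102028215 on the plus strand.
Krt8: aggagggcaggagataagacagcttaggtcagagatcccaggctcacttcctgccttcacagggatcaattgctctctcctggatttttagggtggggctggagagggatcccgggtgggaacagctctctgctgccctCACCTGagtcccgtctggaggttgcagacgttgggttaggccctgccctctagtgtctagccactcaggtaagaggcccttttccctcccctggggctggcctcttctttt
Krt18: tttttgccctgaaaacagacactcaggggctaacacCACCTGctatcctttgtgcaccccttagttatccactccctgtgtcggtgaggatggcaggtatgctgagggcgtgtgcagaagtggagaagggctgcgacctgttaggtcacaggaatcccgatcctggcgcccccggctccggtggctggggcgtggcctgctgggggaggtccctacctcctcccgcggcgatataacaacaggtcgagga

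Both windows held the E-box once, 111 bases before the start in Krt8 and 214 bases before it in Krt18. The GC content was 58.0% in Krt8 and 60.4% in Krt18. Windows were searched for 8 of the 10 genes. No window was listed for Krt19. Entries on chromosome 18, where Zeb1 lies, were left out of this search but not out of the shares over all windows below. The motif CACCTG, searched on both strands (CAGGTG on the other), also lay in the windows of Krt7 (44 bases before the start), Epcam (187 and 19 bases) and Cldn4 (14 bases). The windows of Dsp, Vim and Zeb2 did not hold these letters, and Krt19 and Zeb1 are named only. Of 32851 windows of the same length, 17.2% held the motif. A pair of other motifs was searched on both strands: TATAAA, present in 12.4% of all windows, was found only for Vim (32 bases before the start), and TGANTCA, present in 6.75%, was found for Cldn4 and for 1 start of Zeb2. No match overlapped another, and a match is a description of the sequence only.

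Krt8 was abundant in 7 subclones and low in subclone 18, just under the median of all probe sets. Levels are given as log2(intensity + 16), a scale on which low values are compressed and folds are understated. In subclone 18 the 3 arrays read 5.59, 5.66 and 5.86, a mean of 5.70 ± 0.14 (SD, n = 3). In subclone 19, the next lowest, they read 10.35, 10.31 and 10.30, and in subclone 3, the highest, 11.28, 11.38 and 11.21. No array of subclone 18 came within 4 log2 units of an array of another subclone. As mean intensity, subclone 18 stood at 36.2 and the other subclones between 1263 and 2492. The difference between subclone 18 and the mean of the other 7 was -5.14 log2 units, or 35.4-fold, and the distance from subclone 3 was 5.59, or 48.1-fold. The 3 values of subclone 18 lay under 5.88, the median over all probe sets and arrays, which is used here as the filter level. No detection calls were used, so the low end of this range is not firm.

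Among the other 7 subclones, Krt8 still differed. The means were 10.84 ± 0.06 in subclone 2, 11.29 ± 0.09 in subclone 3, 11.18 ± 0.01 in subclone 6 (n = 2), 10.32 ± 0.03 in subclone 19, 10.42 ± 0.03 in subclone 23, 11.04 ± 0.05 in subclone 24 and 10.83 ± 0.00 in subclone 28 (SD, n = 3 unless stated). This range of 0.97 log2 units, 1.96-fold, passed limma's F-test over 7 subclones (adjusted p = 1.36e-10). That test called 60.3% of all genes and 6 of the 10 genes described here. In order of level, only the neighbours 28 and 2 had arrays that overlapped.

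All 3 probe sets of Krt8 gave the same picture. The further sets read 5.19 and 4.98 in subclone 18 and 10.00 or more in every other subclone, and their 8 means correlated with those of the main set at r = 1.00. They come from the same arrays and RNA, so they describe the agreement of probes and are not further samples. Both carry the suffix of sets with probes that can match other transcripts.

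Krt18, the partner chain, was high in every subclone and lowest in subclone 18. The arrays of subclone 18 read 10.80, 10.83 and 10.83, those of subclone 23 11.16, 11.22 and 11.23, and those of subclone 3 11.96, 12.01 and 11.95. Arrays of subclone 18 lay below all 20 others. The remaining means were 11.45 ± 0.03 in subclone 19, 11.58 ± 0.06 in subclone 2, 11.79 ± 0.03 in subclone 28, 11.84 ± 0.06 in subclone 24 and 11.84 ± 0.04 in subclone 6 (SD). Subclones 28, 24 and 6 overlapped with their neighbours in this order and all other neighbours did not. The range of 1.15 log2 units (2.22-fold) passed the F-test over 8 subclones with an adjusted p of 2.13e-13 by limma. Over all genes, 61.8% passed that test and 12.7% passed it with a range reaching 1 log2 unit.

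Krt18 was lower in subclone 18 (-0.85 log2 units, SE 0.030, 1.80-fold) than in the mean of the others, with an adjusted p of 6.33e-14 by limma. It was also lower in subclones 23 (-0.41) and 19 (-0.12), and higher in subclones 3 (0.47), 6 (0.32), 24 (0.31) and 28 (0.26), all with adjusted p-values of 0.00265 or less. Without subclone 18, the range was 0.77 log2 units (adjusted p = 1.48e-09).

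**Figure D1:**
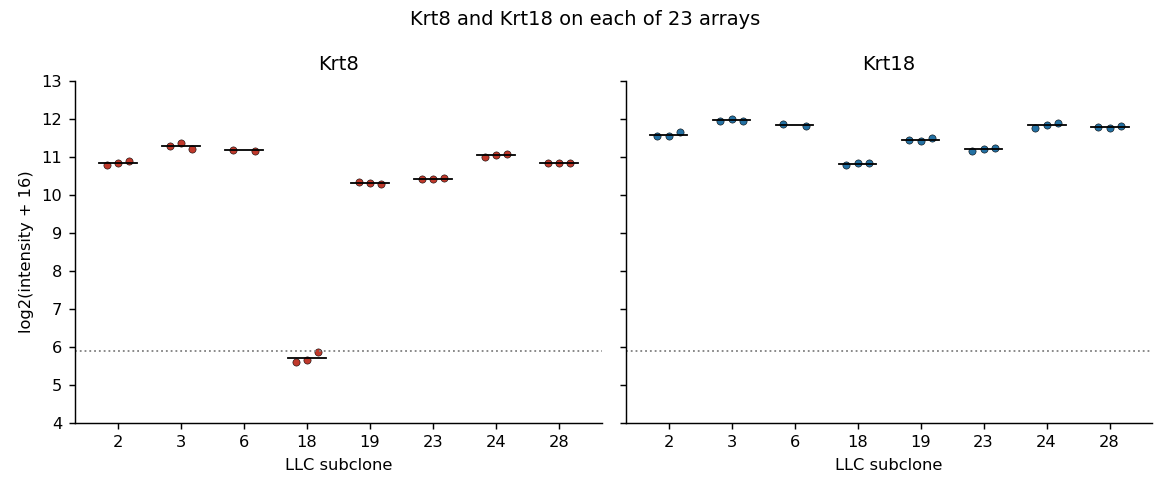
Levels of Krt8 (left) and Krt18 (right) as log2(intensity + 16) on the vertical axis, with 1 point per array and a bar at the mean of each of the 8 subclones on the horizontal axis; the dotted line is the filter level of 5.88. Krt8 sits at 5.59 to 5.86 in subclone 18 and at 10.30 or more elsewhere, whereas Krt18 sits at 10.80 to 10.83 in subclone 18 and at 11.16 or more elsewhere.

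Setting the partners side by side, the difference of subclone 18 was much larger for Krt8 than for Krt18. The difference Krt8 minus Krt18 on a single array has no meaning as a level, since the probe sets differ, but it can be compared between subclones. It was -5.12 ± 0.14 (SD, n = 3) in subclone 18. In the other 7 subclones it lay between -1.13 ± 0.05 (subclone 19) and -0.66 ± 0.03 (subclone 6, n = 2). Subclone 18 therefore differed from the mean of the others by -4.30 log2 units (SE 0.037), the amount by which the difference in Krt8 exceeded that in Krt18. Pseudocounts of 1 and 64 moved this value to -4.77 and -3.41.

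Outside subclone 18 the partners went together over the subclones. Over the 7 subclones without it, the means of Krt8 and Krt18 correlated at r = 0.90 (Spearman's rho = 0.93, n = 7). With subclone 18 included, r was 0.86 (rho = 0.95, n = 8). Both genes were highest in subclone 3, and their 3 lowest subclones were 18, 19 and 23. The points share arrays, so array-wide differences enter both genes, and these coefficients are descriptions.

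The genes around the pair on chromosome 15 showed what lay beside it. The 10 measured genes on the Krt8 side are all keratins of other epithelia, from Krt71 to Krt78, and 0 of 10 passed the contrast of subclone 18 (limma, adjusted p under 0.05; 0 also at an unadjusted p under 0.05), with a median difference of 0.04 and a span from -0.20 to 0.26. Their median levels over the arrays were mostly under the filter level. Krt78, the immediate neighbour of Krt8, read 4.11 in subclone 18 and 4.09 to 4.42 on single arrays of all subclones. On the Krt18 side, the immediate neighbour Eif4b, a translation initiation factor, read 12.14 in subclone 18 and differed by -0.17 (SE 0.039, adjusted p = 0.00158 by limma).

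Of the 10 genes on that side, 8 passed the contrast and 1 of them by at least 1 log2 unit. This was Itgb7, the integrin beta 7 chain, at 8.69 in subclone 18 and 9.84 or more elsewhere (-1.58, SE 0.036). Igfbp6, a binding protein of insulin-like growth factors, differed by -0.82 (SE 0.033), but was as low in subclone 19 (9.46) as in subclone 18 (9.41). These 2 genes were singled out after their values were seen. The median difference on that side was -0.17, against -0.04 over 729 genes of chromosome 15, of which 287 passed the contrast. Over all genes, 43.1% passed it, 0.885% were higher by at least 1 log2 unit and 1.8% lower.

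**Figure D2:**
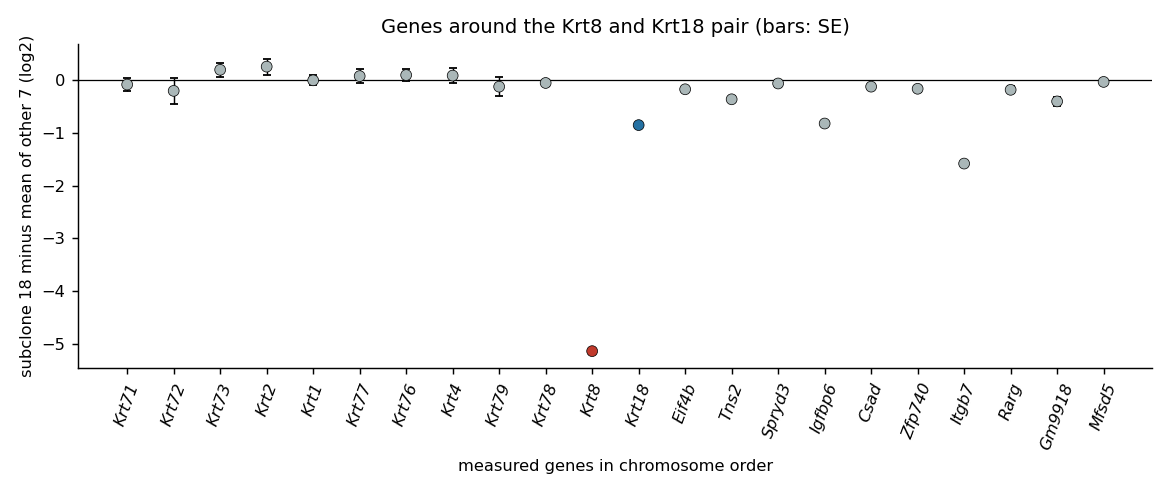
Difference between subclone 18 and the mean of the other 7 subclones (log2 units, bars show the SE) for Krt8, Krt18 and the 10 measured genes on either side, in chromosome order with no distances to scale. Krt8 lies at -5.14 and Krt18 at -0.85, the keratins to the left lie between -0.20 and 0.26, and Itgb7 to the right lies at -1.58.

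Krt19, the smallest of the keratins and a partner of Krt8 and Krt7, had a different order of subclones. It was highest in subclone 6, at 7.26 and 7.06, and next in subclones 3 (6.66, 6.53 and 6.52) and 23 (6.71, 6.41 and 6.59). In subclone 24 it read 5.51, 6.03 and 6.21. The arrays of subclones 2, 18, 19 and 28 all lay at 5.62 or less, under the filter level, and 10 of 23 arrays lay above it. The range of 2.09 log2 units (4.27-fold) passed the F-test with an adjusted p of 2.24e-09 by limma, and the same range without subclone 18 with 3.56e-08. It was 2.79 with a pseudocount of 1 and 1.23 with 64.

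Against the mean of the others, Krt19 was higher in subclones 6 (1.43, SE 0.13), 3 (0.76, SE 0.11) and 23 (0.76, SE 0.11). It was lower in subclones 19 (-0.96), 28 (-0.71), 2 (-0.68) and 18 (-0.60), and these 7 contrasts had adjusted p-values of 1.69e-04 or less by limma. Subclone 23 was thus among the lowest for Krt18 and among the highest for Krt19, both of them type I chains. The correlation of Krt19 with Krt18 over the 8 means was 0.34 (rho = 0.36) and with Krt8 0.36 (rho = 0.52). Subclones 19, 23 and 24 had a lower 5th percentile of intensity (2.08 to 2.39) than the others (2.45 to 2.76), which touches values near the floor. Without them the range of Krt19 was 1.87.

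Krt7 showed no call. Its 23 arrays lay between 4.70 (subclone 23) and 5.46 (subclones 3 and 6), with a median of 5.16, and 0 of them reached the filter level. The subclone means spanned 0.43 log2 units and the F-test did not pass (adjusted p = 0.192 by limma). The arrays of all neighbouring subclones in the order overlapped.

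Epcam encodes the epithelial cell adhesion molecule at the surface of epithelial and carcinoma cells. On the probe set used it was highest in subclone 18, at 8.06, 7.85 and 8.07, and lowest in subclone 19, at 7.10, 7.04 and 7.02. The other means ran from 7.24 ± 0.14 in subclone 3 and 7.35 ± 0.16 in subclone 24 to 7.67 ± 0.05 in subclone 28, 7.69 ± 0.03 in subclone 2 and 7.72 ± 0.15 in subclone 23 (SD, n = 3), with subclone 6 at 7.52 ± 0.10 (n = 2). The arrays of subclone 18 lay above all others. Epcam was higher in subclone 18 by 0.53 (SE 0.068, adjusted p = 2.74e-06 by limma) and lower in subclone 19 (-0.54), and its range of 0.94 log2 units passed the F-test (adjusted p = 4.55e-07).

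These Epcam values rest on 1 of 2 probe sets. The set used has the suffix of probes that can match other transcripts, and the second set read 4.45 to 5.25 on all arrays, under the filter level, with a range of means of 0.35. Over the 8 means the sets correlated at r = -0.18. With the mean over both sets, the range was 0.54 in place of 0.94 and the difference in subclone 18 was 0.30 in place of 0.53. The difference in subclone 2 changed from 0.19 to -0.02, the calls in subclones 3, 23 and 24 were lost, and the range without subclone 18 (0.37) no longer passed (adjusted p = 0.0541 by limma).

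Cldn4, a claudin of tight junctions, and Dsp, which encodes desmoplakin, the link from desmosomes to keratin filaments, were near the floor in every subclone. Cldn4 lay between 4.09 and 4.87 over the 23 arrays with a median of 4.45, and its range of 0.47 did not pass (adjusted p = 0.303 by limma). Dsp lay between 4.35 and 4.79 with a median of 4.56, and its range of 0.29 did not pass either (adjusted p = 0.122). The contrast of subclone 23, where all arrays of Dsp read 4.35, passed for Dsp at -0.22 (adjusted p = 0.0133 by limma). The other 2 probe sets of Dsp, also under the filter level, differed there by 0.13 and -0.04, and the call was lost with the mean over the 3 sets (-0.04, adjusted p = 0.586 by limma) and without replicate 2 of subclone 23 (adjusted p = 0.0508).

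Vim, the gene of vimentin, was high and nearly level. Its 23 arrays lay between 13.63 and 13.84 with a median of 13.74. The lowest mean was 13.67 ± 0.04 in subclone 18 and the highest 13.83 ± 0.01 in subclone 28 (SD, n = 3). The range was 0.16 log2 units, 1.12-fold, and it passed the F-test by a small margin (adjusted p = 0.0185 by limma). Subclone 28 differed by 0.10 (SE 0.028, adjusted p = 0.00879) and subclone 18 by -0.08 (adjusted p = 0.0286). The call in subclone 18 was lost with quantile normalization (adjusted p = 0.102), with median centring (adjusted p = 0.115) and without replicate 1 (0.192) or 2 (0.0842) of subclone 18. It was also lost with the mean over the 3 probe sets (-0.07, adjusted p = 0.115 by limma). The further sets had their lowest means in subclones 6 and 19. With all other arrays taken as 1 group, the calls in subclones 28 and 18 were both lost (adjusted p = 0.284 and 0.313 by limma). Over the 7 subclones without 18, the range of 0.14 had an adjusted p of 0.0595, but it passed under 7 of 9 alternative settings (adjusted p between 0.00162 and 0.0445 by limma).

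Zeb1 lay above the filter level on all 23 arrays and varied by less than 2-fold. It read 9.74, 9.61 and 9.66 in subclone 18 and 9.69, 9.70 and 9.72 in subclone 19, and these arrays overlapped. It read 10.47, 10.45 and 10.45 in subclone 28, above all other arrays. Subclones 3 (10.00 ± 0.09) and 23 (10.03 ± 0.04) overlapped with each other, and so did subclones 24 (10.26 ± 0.03), 2 (10.29 ± 0.09) and 6 (10.29 ± 0.02, n = 2). The range of 0.79 log2 units (1.73-fold) passed the F-test with an adjusted p of 3.93e-10 by limma. Zeb1 was lower in subclones 18 (-0.48, SE 0.038) and 19 (-0.43, SE 0.038), and was higher in subclones 28 (0.42), 2 (0.23), 6 (0.23) and 24 (0.20). These values are from the probe set used, and in subclone 18 the further sets of Zeb1 differed by 0.10, -0.09 and -0.37. The value of 0.10 comes from a set under the filter level. A link to the levels of Krt8 and Krt18 was not tested.

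Zeb2 had another order. It was highest in subclone 23, at 10.34, 10.39 and 10.08, and in subclone 18, at 10.14, 10.18 and 10.26, and the arrays of these 2 overlapped. It was lowest in subclone 19, at 9.68, 9.71 and 9.44. The range of 0.66 log2 units (1.58-fold) had an adjusted p of 2.84e-06 in limma's F-test. Zeb2 was higher in subclones 23 (0.41, SE 0.059) and 18 (0.32, SE 0.059) and lower in subclones 19 (-0.35), 2 (-0.20) and 3 (-0.16). The calls in subclones 2 and 3 were lost with median centring (adjusted p = 0.0959 and 0.141 by limma), and that in subclone 3 also when any of 16 single arrays was left out (adjusted p up to 0.214).

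The 2 repressor genes did not go together over the subclones, with r = -0.06 (rho = 0.07) over 8 means and 0.33 (rho = 0.50) without subclone 18. In subclone 18, Zeb1 was low and Zeb2 high, and in subclone 19 both were low. Zeb1 correlated with Krt18 at 0.68 over 8 means and 0.43 over 7, and Zeb2 with Krt18 at -0.59 and -0.38. The further probe sets of Zeb2 correlated with the one used at 0.93, 0.91, 0.76 and 0.11, and those of Zeb1 at 0.71, 0.33 and 0.27. The order of subclones for Zeb1 thus depends on the probe set. The further Zeb1 sets had lower subclone means, at 6.70 to 7.13, 6.08 to 6.88 and, under the filter level, 4.66 to 5.10. Means of the Zeb1 set used lay at 9.67 to 10.46. With the mean over probe sets, the range of Zeb1 was 0.40 in place of 0.79, the difference in subclone 18 was -0.21 in place of -0.48, the difference in subclone 2 changed from 0.23 to -0.04, and the call in subclone 6 was lost (0.12, adjusted p = 0.339 by limma).

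**Figure D3:**
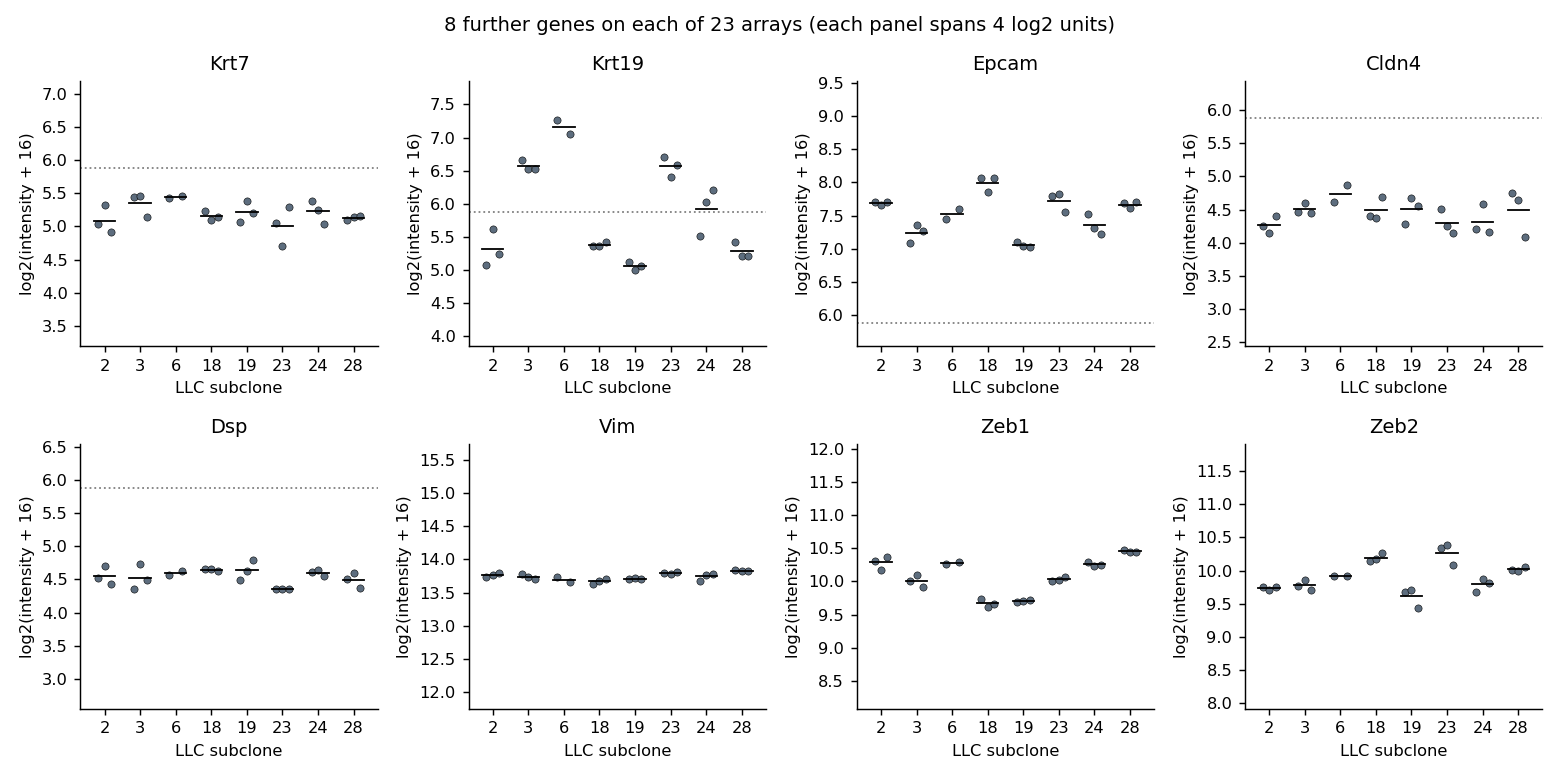
Levels of the other 8 genes as log2(intensity + 16), with 1 point per array and a bar at each subclone mean; every panel spans the same 4 log2 units and the dotted line marks the filter level of 5.88 where it falls inside. Krt19 is highest in subclone 6, at 7.06 and 7.26, Epcam is highest in subclone 18, Vim stays between 13.63 and 13.84, and Krt7, Cldn4 and Dsp stay under the line.

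**Figure D4:**
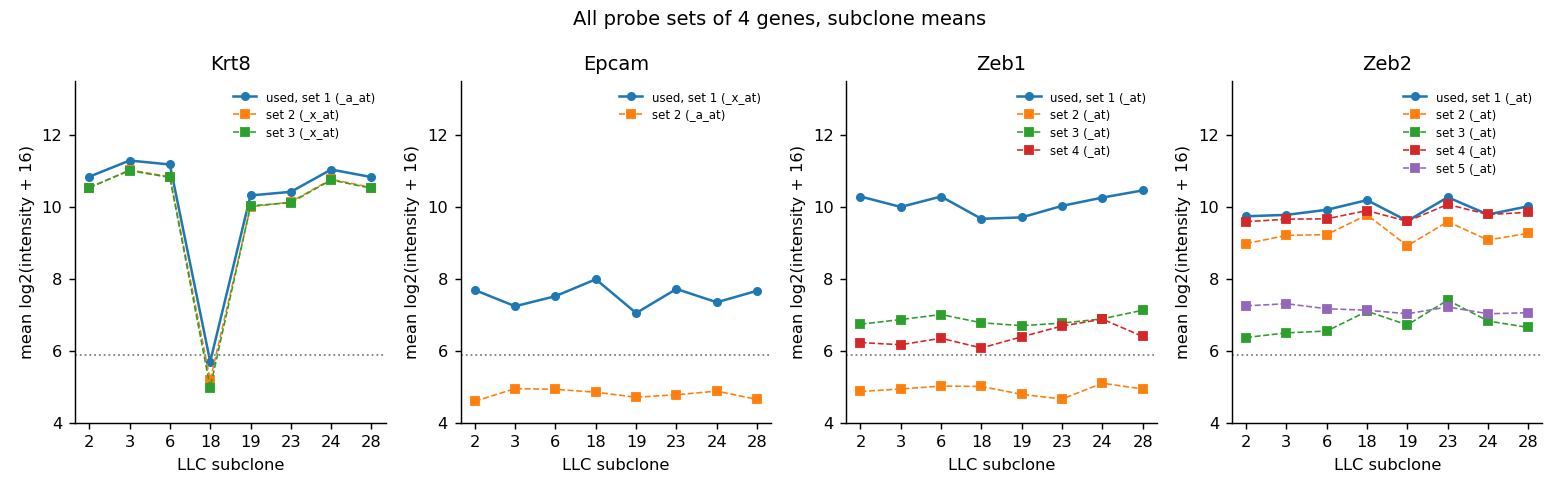
Subclone means of log2(intensity + 16) for all probe sets of Krt8, Epcam, Zeb1 and Zeb2, with the set used drawn as a full line and the others dashed; the dotted line is the filter level. The 3 sets of Krt8 all drop in subclone 18, whereas the second set of Epcam stays between 4.60 and 4.95 and does not follow the first.

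As counts, 6 of the 9 genes other than Krt8 passed the F-test over 8 subclones, a share near the 61.8% of all genes, and 2 of the 9 did so with a range reaching 1 log2 unit. Of 72 contrasts of these 9 genes, 34 passed, 17 of them higher and 17 lower. In subclone 18, 6 of 9 passed, against 43.1% of all genes. In subclone 19, 5 passed, against 41.9%, and in subclone 23, 5 passed, against 37.7%. Subclones 2, 3 and 28 had 4 each, against 36%, 38% and 37.4% of all genes. Subclones 6 and 24 had 3 each, against 24% and 32.3%. The 8 contrasts of a gene share arrays and are not independent. With all other arrays taken as 1 group, so that differences between subclones enter the spread, 5 contrasts passed in place of 34.

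Wider lists of epithelial and mesenchymal genes, written from general knowledge, set these genes in context. Over all genes, 61.8% passed the F-test, 12.7% with a range reaching 1 log2 unit, and 43.1% passed the contrast of subclone 18. Of 43 other keratins measured, 9 passed the F-test (20.9%). Of these, 2 had a range reaching 1 log2 unit (Krt73 and Krt72, both at 5.96 or less in every subclone mean). In subclone 18, 0 of the 43 differed by at least 1 log2 unit (2 were higher and 0 lower by adjusted p alone, by limma). Their median level was 4.98. Of 14 desmosome genes, 4 passed (28.6%), and only 4 reached the filter level in any subclone mean. Pkp2 and Pkp4, plakophilins that also sit at other junctions, had the only ranges of at least 1, with 8.71 and 8.69 in subclone 2 and 9.28 or more elsewhere. Krt73, Krt72, Pkp2 and Pkp4 were picked after their values were seen.

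Of 33 tight junction genes, 16 passed (48.5%, against 61.8% of all genes), 8 of them with a range reaching 1 log2 unit. The filter level was reached by 16 of the 33 in any subclone mean. F11r, the junctional adhesion molecule A, read 7.67 in subclone 2 and 7.60 in subclone 19. In subclone 18 it was higher by 1.07 (SE 0.074) at 8.02 ± 0.05. Jam3, a related adhesion molecule, was lower there (-1.24) at 5.71 ± 0.17, and so was Cgnl1, which encodes paracingulin (-1.43), at 6.09 ± 0.15 (SD, n = 3). Cxadr, the coxsackievirus and adenovirus receptor, ranged from 4.67 in subclone 24 to 6.70 in subclone 19. Among 16 adherens junction genes 11 passed (68.8%). Ajuba, a LIM protein of cadherin contacts, was higher in subclone 18 by 1.12 (SE 0.057) at 9.83. It read 9.32 in subclone 23, 9.17 in subclone 19 and 8.64 or less elsewhere. The classical epithelial cadherin gene Cdh1 lay between 4.11 and 4.81 on all arrays, under the filter level, and did not pass (adjusted p = 0.108 by limma).

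Of 37 further epithelial identity genes, 12 passed (32.4%, against 61.8% of all genes) and 5 had a range of at least 1. In subclone 18, 0 differed by that size (4 were higher and 7 lower by adjusted p alone, by limma). Only 10 of these 37 genes reached the filter level in any subclone mean. The median level of the 37 was 4.88, against 6.90 over all genes. Of 14 transcription factor genes of epithelial to mesenchymal transition other than Zeb1 and Zeb2, 12 passed (85.7%). Foxc1, a forkhead factor, had the widest range of this list at 2.07, from 7.56 in subclone 19 to 9.63 in subclone 24. Of 25 mesenchymal genes, 18 passed (72%). Pdgfrb, the receptor for PDGF-B, read 8.19 ± 0.07 in subclone 18 and 5.46 or less, under the filter level, in all others (3.47, SE 0.090). This difference was 4.80 with a pseudocount of 1, 2.18 with 64 and 2.05 with the mean over probe sets. Fstl1, a secreted glycoprotein, was higher in subclone 18 by 1.26 but higher still in subclone 23 (11.83 against 11.60). Pdgfra, the related receptor, was lower in subclone 18 (-1.03), at 8.07 against 8.52 in subclone 2.

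Filament genes outside the keratins included 2 that fell in subclone 18. Nefl, the neurofilament light chain, read 8.88 ± 0.12 there and 9.77 or more elsewhere (-1.44, SE 0.045). Prph, which encodes peripherin, read 5.44 ± 0.15 there and 6.15 or more elsewhere (-1.06, SE 0.070). Nefm, the medium chain, ranged from 7.22 in subclone 2 to 9.36 in subclone 28. In all, 9 of 14 such genes (64.3%) and 11 of 16 genes of keratin linkers (68.8%) passed the F-test. Over the 13 lists together, 112 of 241 measured genes passed (46.5%, against 61.8% of all genes), and 43 had a range reaching 1 log2 unit. Only 114 of the 241 reached the filter level in any subclone mean, against 11576 of all 18193 genes. In subclone 18, 4 of the 241 were higher and 6 lower by at least 1 log2 unit, against 0.885% and 1.8% of all genes. The median difference of the 241 was 0.01, the same as over all genes. The count of 10 called list genes became 16 with a pseudocount of 1 and 6 with 64 or with the mean over probe sets. Under that mean, F11r, Jam3, Cgnl1, Pdgfra and Prph differed by less than 1 log2 unit.

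**Figure D5:**
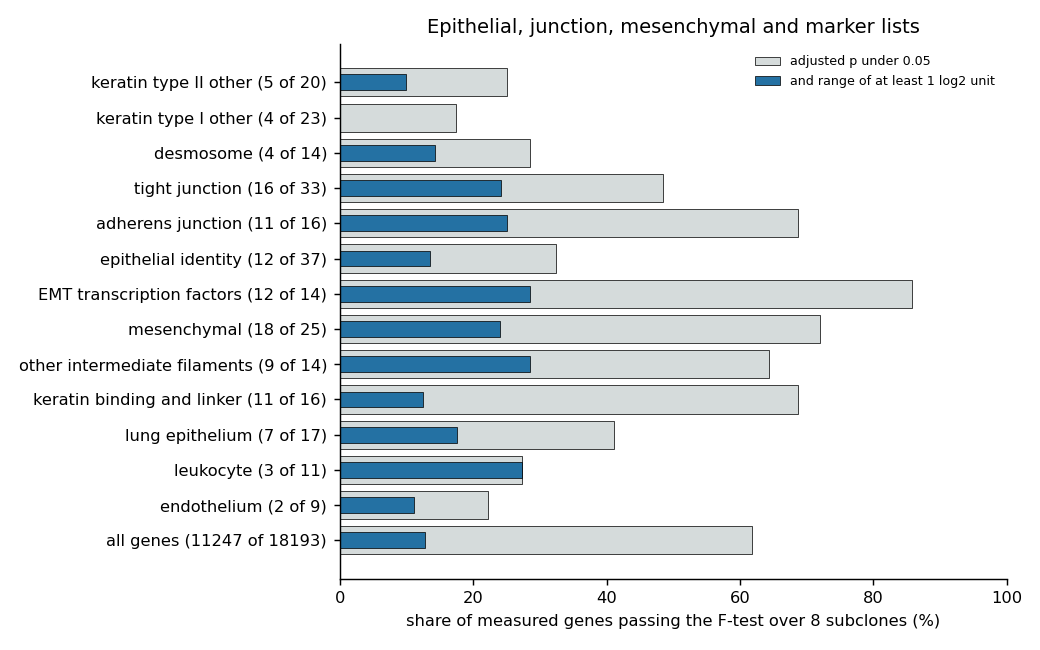
Share of the measured genes in each list that passed limma's F-test over 8 subclones (grey bars, in percent) and that also had a range of subclone means of at least 1 log2 unit (blue bars), with all genes at the bottom. Other keratins of type I reach 17.4% and transcription factors of epithelial to mesenchymal transition 85.7%, against 61.8% of all genes. The median levels of these lists were 4.94 and 9.23, against 6.90 over all genes. In any subclone mean, 3 of 23 and 10 of 14 of their genes reached the filter level, so the shares are not from genes of like level.

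Markers of lung epithelium and of other cell types were checked against the label of the cells. Nkx2-1, the lineage factor of lung epithelium, lay between 4.10 and 4.80, and the surfactant gene Sftpc between 4.74 and 5.87, all under the filter level. Ptprc, the common leukocyte antigen, lay between 4.12 and 5.04, and the endothelial genes Pecam1 and Cdh5 between 4.32 and 5.0 and between 4.79 and 5.50. The median difference of the 11 leukocyte genes lay between -0.12 and 0.08 in the 8 subclones, and 3 of them passed the F-test. Their median level was 4.96, under the filter level, so this median difference says little about the expressed ones. Cd68, a lysosomal protein of macrophages and other cells, was lower in subclone 18 (-1.63), and Lyz2, a lysozyme gene, ranged from 5.73 in subclone 3 to 7.99 in subclone 19. Of 17 lung epithelial genes 7 passed, among them Foxa2, a forkhead factor, at 9.36 in subclone 3 and 7.33 in subclone 23. The endothelial list had 2 of 9 genes passing (22.2%), the leukocyte list 27.3% and the lung list 41.2%, against 61.8% of all genes. In these lists 0 of 9, 5 of 11 and 7 of 17 genes reached the filter level in any subclone mean.

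For each of the 3 keratins with a range reaching 1 log2 unit, the 5 genes with the most similar pattern were sought among 2337 genes with such a range, by Pearson's r over the 8 subclone means. For Krt8 they were Rbm7 (0.993), Trim44 (0.992), Deptor (0.983), Kcnh2 (0.972) and Sesn3 (0.972). Trim44 read 4.45 in subclone 18 and 8.86 or more elsewhere, and Sesn3, a sestrin gene, 4.40 there and 8.36 or more elsewhere. Without subclone 18 these 5 correlations were 0.79, 0.75, 0.83, 0.53 and 0.32, so subclone 18 carried much of the likeness. For Krt18 they were Ccl27a (0.972), Prag1 (0.968), 9130024F11Rik (0.962), Ptprn (0.957) and B3gnt2 (0.955), and without subclone 18 they were still between 0.89 and 0.96. For Krt19 they were Aqp1, a water channel gene (0.880), Enpp5 (0.825), Gm19345 (0.824), Mapk13 (0.812) and Crip1 (0.804). The genes were chosen for these values, and the 8 points share their arrays.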

How the data were processed

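Total RNA of 8 LLC subclones was measured on 23 Affymetrix arrays. The deposited table holds linear intensity values, 1 per probe set and array; the authors' summary algorithm and scaling are, in the sources used here, not given. Array medians lay between 40.83 and 45.74, and the number of arrays limits the precision. No 2 arrays were identical (0 pairs).

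Of 45101 probe sets, 64 controls were left out, 34945 had 1 symbol, 932 several and 9160 were not listed in the probe annotation; 34741 symbols were updated through a RefSeq table of GRCm38.p6. Each of 9010 genes with several sets was represented by the set with the highest mean intensity. Values were taken as log2(intensity + 16) and modelled in limma 3.58.1 under R 4.3.3 (lmFit, eBayes, 1 coefficient per subclone, 15 residual degrees of freedom), with Benjamini-Hochberg adjustment over 18193 genes and a threshold of 0.05. Counts of list genes in subclone 18 also needed a difference of 1 log2 unit.

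Simulated data for the contrast of subclone 18 held 18193 genes, of which a small random part was given a change. Of these changes, 99% of 2-fold and 100% of 4-fold ones were found. Unlike the arrays, the simulated data held no other differences between subclones. The scale used compresses low values, so a 2-fold change of intensity near the floor is a smaller difference on it. These shares therefore do not tell how often such changes would be found in genes under the filter level, such as Krt7, Cldn4 and Dsp. The members and lists were chosen with earlier results of these data known. Named from the lists were genes that passed the F-test and spanned at least 2 log2 units, or were called in subclone 18, at most 6 per list, besides defining markers of cell types, immediate chromosome neighbours and the 5 genes most like each keratin. Krt73, Krt72, Pkp2, Pkp4, Itgb7, Igfbp6 and Cd14 fall outside this rule and were picked after their values were seen. Alternatives covered the pseudocount, normalization, a filter, the probe sets per gene, the variance model, weights, the replicate number and single arrays; leaving out subclones 19, 23 and 24 was added after seeing their arrays.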

Additional observations from a re-analysis of the deposited data

How the results depend on the processing

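The range of Krt8, 5.59 log2 units, was 6.07 with a pseudocount of 1, 4.67 with 64 and 5.82 as a mean over probe sets. The gap between Krt8 and Krt18 in subclone 18, -4.30, became -4.77, -3.41 and -4.51 under these settings, and -4.36 against subclones 2, 3, 6 and 28 alone. List genes called in subclone 18 numbered 10, and 16, 6 and 6 under the same 3 settings. With all other arrays as 1 group, whose spread then holds the differences between subclones, 5 contrasts passed in place of 34. Under the mean over probe sets, Epcam (-0.02, adjusted p = 0.88) and Zeb1 (-0.04, adjusted p = 0.696) in subclone 2 changed sign, and 27 contrasts passed; 29 passed with median centring and 32 with quantile normalization, all by limma. The cause of these shifts was not tested. Leaving out 1 array at a time, 31 to 36 contrasts passed. The range of Krt7 was then 0.36 to 0.57 and passed without replicate 3 of subclone 23 (adjusted p = 0.0497), that of Dsp 0.28 to 0.36 and passed without replicate 2 of subclone 3 (adjusted p = 0.0309), and that of Vim 0.14 to 0.18 and did not pass without replicate 1 of subclone 28 (adjusted p = 0.0525). With the replicate number as a block, 34 contrasts passed. Residuals of same-numbered arrays of different subclones correlated between -0.28 and 0.19 (median -0.01). Of these 77 pairs, 8 lay over 0.1, against 10 of 154 pairs with other numbers. Such values cannot settle whether same-numbered arrays were grown or run together, and the labels do not say. The block and array weights were not run for the difference between the partners. A filter on low values removed Krt7, Cldn4 and Dsp. Values at the floor have no firm order.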
